A study of Mus musculus with 20 samples.

Results

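The hippocampus of mice aged 24 months was compared with that of mice aged 5 months where both groups had been housed in an enriched environment. The comparison used 10 of the 20 libraries of the series, the 5 labelled 24 months and enriched (24mEE) and the 5 labelled 5 months and enriched (5mEE). The labels put each library in its group, and the comparison was chosen because these 10 libraries were the most even in quality, with earlier results of these data known. All 20 libraries came from the hippocampus of male C57BL/6 mice, 1 library a mouse, and the other 10 were the groups of the same ages in standard cages (24mSC and 5mSC, 5 libraries each). According to the methods of the study, the old enriched mice lived in standard cages until late in life and were then moved to an enriched environment with running wheels, whereas no duration is given for the young enriched mice. Age and the onset and length of enrichment therefore cannot be told apart here. No transgene or drug was part of the design.

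The hippocampus holds excitatory neurons, interneurons, astrocytes, oligodendrocytes and their precursors, microglia and vessels, and the dentate gyrus keeps a niche in which neural stem cells divide and give rise to new neurons. Microglia are the resident phagocytes of the brain, and they carry complement receptors, lysosomal proteases and the machinery that presents peptides on MHC molecules. Oligodendrocyte precursors divide and pass through a short committed stage before they form myelin. In tissue RNA, fewer cells of a type and less RNA per cell cannot be told apart.

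The 5mEE libraries held 22.1 to 34.1 M counts (M, mega) and the 24mEE libraries 21.7 to 27.2 M. Pearson's r between any pair of the 10 libraries across genes was 0.989 to 0.994, against a lowest value of 0.923 among all 20 libraries, and genes are not independent replicates. The biological coefficient of variation was 9.59% in the 10 enriched libraries and 23% in the 10 standard cage libraries, and it was 10.2% in the latter once 5mSC replicates 1 and 3 were left out. In 5mSC replicate 3, mitochondrial ribosomal RNA took 26.8% of the counts and r with the other libraries was 0.923 to 0.932. In 5mSC replicate 1 that share was 1.44%, within the range of the other libraries of its group, and r with the libraries other than replicate 3 was 0.979 to 0.986, where pairs among the remaining 18 had 0.985 to 0.994. Results from standard cages are therefore given with and without both. The counts of mitochondrial ribosomal RNA were 0.883% to 1.53% of the total in the enriched libraries. Levels are given as CPM, counts per mega of library total scaled by TMM. In what follows ± is the SD over the 5 libraries of a group for CPM and the SE for a log2 fold change, and adjusted p are from the same test throughout. Markers of dentate gyrus granule cells, a part of the labelled tissue, averaged 5.80 ± 0.25 log2 CPM in 5mEE and 5.79 ± 0.09 in 24mEE. Those of the subfields CA1, CA2 and CA3 averaged 6.22 ± 0.17, 3.65 ± 0.22 and 5.06 ± 0.13 in 5mEE and 6.22 ± 0.07, 3.75 ± 0.17 and 4.90 ± 0.09 in 24mEE. Of 10 CA3 markers 8 lay below 0 and 0 were called. Markers of the adjoining neocortex averaged 4.11 ± 0.18 and 4.10 ± 0.29, where 24mEE replicate 2 stood at 4.61.

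At an adjusted p under 0.05, 52 of 16054 genes differed between the ages, 38 higher and 14 lower at 24 months. These are 0.237% and 0.0872% of the genes tested, or 0.324% in either direction (edgeR's quasi-likelihood test with Benjamini-Hochberg adjustment). The same shares are the background for each count of called list members below. Members of a list were measured in the same 10 libraries and are not independent replicates. The lists were also chosen with earlier results of these data known. Counts of members, also those at an unadjusted p, are therefore descriptions and not tests of a list. The median log2 fold change over all genes tested was 0.00, with 7972 genes above 0 and 8082 below. The genes that rose included complement C4b, the cilia gene Spag6, 4 clustered protocadherins, the MHC class I genes B2m and H2-D1 and several microglial genes, and those that fell included markers of committed oligodendrocyte precursors, a dividing cell marker, a newborn neuron gene and chaperones. The 5 libraries of 1 age lay wholly above those of the other in 37 of the 38 genes that rose (Apod was the exception) and in 14 of the 14 that fell, where 1.61% and 1.10% of all genes tested did so in each direction. These genes were picked by a test on the same 10 libraries, so this describes the calls and adds no evidence for them. The number called fell by over 1.5 times without any 1 of 7 libraries: 14 genes passed without 5mEE replicate 2, 15 without 24mEE replicate 3, 16 without 5mEE replicate 4, 20 without 24mEE replicate 5, 23 without 5mEE replicate 3, 25 without 5mEE replicate 1 and 28 without 24mEE replicate 1. It was 44 without 5mEE replicate 5, 42 without 24mEE replicate 2 and 48 without 24mEE replicate 4. All 52 kept their direction in each setting tried, and 11 passed whichever library was left out, namely Spag6, B2m, A530053G22Rik, Lsp1, Lyz2, Top2a, A830036E02Rik, C4b, Gpr17, Pcdhb9 and AC149090.1.

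**Figure D1:**
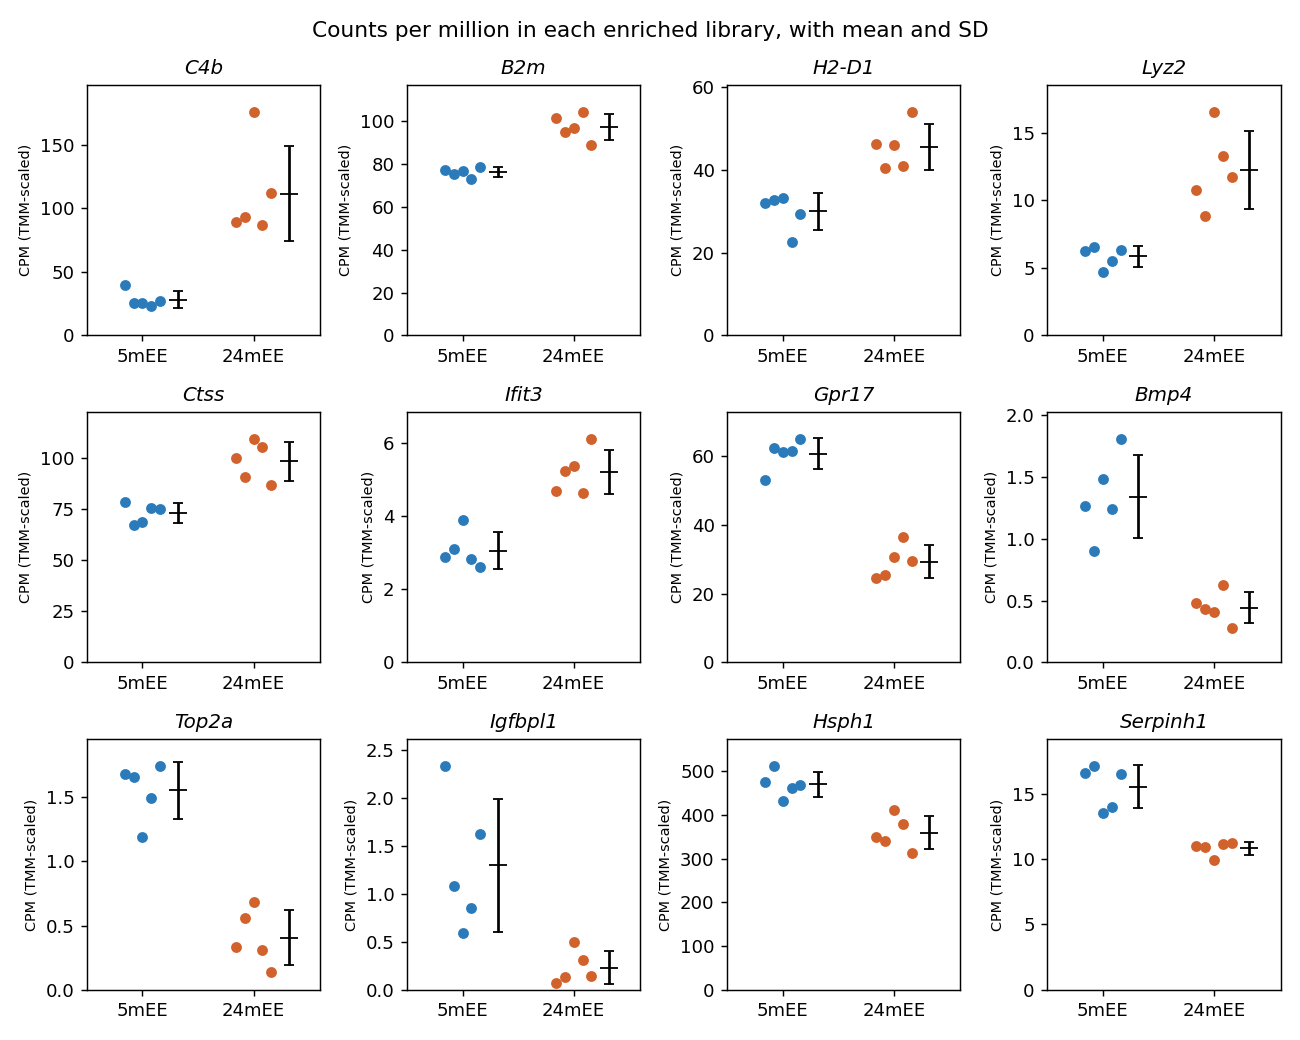
TMM-scaled CPM (y axis) of 12 genes in each of the 5 5mEE (blue) and 5 24mEE (orange) libraries, with the group mean and SD as black bars. In each of the 12 panels the 2 groups do not overlap, and C4b has 1 high 24mEE library at 176 CPM.

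Complement marks synapses and debris for uptake by phagocytes, and C4b encodes an early component of that cascade (chromosome 17, 34728380 to 34743882, GRCm38). It stood at 39.8, 25.7, 25.1, 23.1 and 26.9 CPM in the 5mEE libraries and at 89.2, 93.3, 176, 87.3 and 112 CPM in the 24mEE libraries. C4b was thus 1.98 ± 0.20 higher on the log2 scale (SE, adjusted p = 0.000771), and every 24mEE library lay above every 5mEE library. Of the 50-base words of C4b, 34.6% also occur in other transcripts, so reads could be shared with a near copy. Of 19 complement genes tested, 2 were called higher (C4b and Itgb2, an integrin subunit of a complement receptor, at 7.30 ± 0.27 and 10.4 ± 1.32 CPM, SD, n = 5) and none lower. Their median log2 fold change was 0.30, with 16 above 0. C3, the central component, was chosen for mention after its values were seen and did not pass: it had 1.32 ± 0.757 and 4.01 ± 2.59 CPM, a difference of 1.56 with adjusted p = 0.192.

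Of 25 genes of phagocytic and disease-associated microglia tested, 5 were called higher (B2m, Lyz2, Ctss, Clec7a and Cybb), none lower, and 23 lay above 0, with a median log2 fold change of 0.34. An unadjusted p under 0.05 in that direction was found in 17 of the 25, against 6.30% of all genes tested. Lyz2, which encodes lysozyme, was at 6.28, 6.55, 4.66, 5.51 and 6.31 CPM in 5mEE and at 10.8, 8.86, 16.6, 13.3 and 11.7 CPM in 24mEE, a rise of 1.06 ± 0.15 (adjusted p = 0.0115). Its words were shared with other transcripts in 15.4% of cases. Clec7a, a pattern recognition receptor, went from 0.317 ± 0.105 to 1.09 ± 0.387 CPM (1.71 ± 0.29, adjusted p = 0.0265). Ctss, a lysosomal cysteine protease that trims antigen, stood at 78.5, 67.1, 68.7, 75.4 and 74.9 CPM in the young and 99.7, 90.5, 109, 105 and 86.5 CPM in the old libraries, a difference of 0.43 ± 0.07 (adjusted p = 0.0227). Of 16 markers of homeostatic microglia 0 were called, and 14 lay above 0 with a median of 0.09. Of the 16, 5 were higher and 1 was lower with an unadjusted p under 0.05, against 6.30% and 5.00% of all genes tested. Cd33 and Cx3cr1, the 2 with the smallest p, had adjusted p = 0.113 and 0.263. The mean log2 CPM of that list was 4.49 ± 0.05 and 4.55 ± 0.14.

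MHC class I molecules present peptides from inside the cell, and the 20 genes of that list all lay above 0 with a median log2 fold change of 0.39. B2m, the light chain of the complex, stood at 77.2, 75.5, 76.9, 73.0 and 78.9 CPM in 5mEE and at 102, 95.0, 96.8, 105 and 89.0 CPM in 24mEE, and it rose by 0.35 ± 0.05 (adjusted p = 0.0115). H2-D1, a heavy chain, went from 29.9 ± 4.37 to 45.5 ± 5.47 CPM (0.60 ± 0.10, adjusted p = 0.0277). These 2 were the members called. The mean log2 CPM of the list was 2.26 to 2.98 in 5mEE and 2.93 to 3.23 in 24mEE, so the ranges overlapped. H2-K1 stood at 0.58 above the young level but missed the threshold at adjusted p = 0.0692, and the class I genes closely resemble each other, with 12.8% of H2-D1 words shared. Class II genes gave 0 calls among 7, and Cd74, the invariant chain, had 1.92 ± 0.674 and 2.66 ± 0.466 CPM (adjusted p = 0.463). Lymphocyte markers were mostly below the filter, with 4 of 20 tested and 0 called, at 0.96 ± 0.18 and 0.93 ± 0.21 mean log2 CPM.

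Interferon-stimulated genes encode antiviral proteins, and of 38 tested 1 was called and 31 lay above 0 (median 0.28). That one was Ifit3, at 2.89, 3.10, 3.90, 2.82 and 2.60 CPM in 5mEE and at 4.70, 5.24, 5.37, 4.64 and 6.11 CPM in 24mEE, 0.77 ± 0.13 higher with adjusted p = 0.024. Of its words, 51.2% are shared with other transcripts. Zc3hav1, an antiviral zinc finger protein outside the list, rose by 0.50 ± 0.08 (9.19 ± 0.707 to 13 ± 0.88 CPM, adjusted p = 0.0182). Bst2 had adjusted p = 0.0664.

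Searches for 3 motifs were run over the 250 bases before the RefSeq start of each gene (GRCm38.p6), on both strands, and the motifs were chosen after the called genes were known. The core of the interferon-stimulated response element, GAAANNGAAA, occurred in 3.06% of 27025 promoters, in 15 of 29 interferon-stimulated genes, in 3 of 17 MHC class I genes, in 5 of the 26 promoters of genes called higher and in 0 of 9 called lower. The heat shock element, GAANNTTCNNGAA or TTCNNGAANNTTC, occurred in 0.407% of all promoters, in 2 of 23 cytosolic heat shock genes, in 1 of the 26 called higher and in none of the called lower, Hsph1 and Serpinh1 among them. The CCAAT box occurred in 34.3% of all promoters, in 19 of 22 endoplasmic reticulum chaperones, in 12 of 14 proliferation genes, in 12 of 17 MHC class I genes, in 13 of 26 called higher and in 3 of 9 called lower. The promoters of 4 genes called higher with a response element core are shown, with the match in capitals; Cybb also had matches, but its RefSeq start lies 18447 bases from the annotated one, and Zc3hav1 and H2-D1 had none. The RefSeq start of H2-D1 lies 364 bases from the annotated one, so the bases searched there lie within the annotated gene, and that of Hsph1 lies 40 bases from it.
Ifit3, chr19:34583279-34583528, + strand: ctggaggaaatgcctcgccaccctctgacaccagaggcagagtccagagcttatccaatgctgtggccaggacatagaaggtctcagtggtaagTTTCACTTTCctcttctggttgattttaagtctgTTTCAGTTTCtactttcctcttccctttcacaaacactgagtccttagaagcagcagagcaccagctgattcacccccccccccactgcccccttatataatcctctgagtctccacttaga
B2m, chr2:122147437-122147686, + strand: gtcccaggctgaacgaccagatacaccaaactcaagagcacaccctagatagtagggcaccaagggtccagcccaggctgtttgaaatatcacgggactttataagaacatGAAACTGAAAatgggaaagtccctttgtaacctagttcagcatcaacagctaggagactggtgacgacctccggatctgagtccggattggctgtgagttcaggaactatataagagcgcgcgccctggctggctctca
Ctss, chr3:95526536-95526785, + strand: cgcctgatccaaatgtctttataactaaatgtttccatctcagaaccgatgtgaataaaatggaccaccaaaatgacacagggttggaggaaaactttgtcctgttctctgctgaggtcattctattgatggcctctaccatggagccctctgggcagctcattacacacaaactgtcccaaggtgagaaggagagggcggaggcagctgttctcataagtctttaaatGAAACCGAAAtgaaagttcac
Clec2d, chr6:129180365-129180614, + strand: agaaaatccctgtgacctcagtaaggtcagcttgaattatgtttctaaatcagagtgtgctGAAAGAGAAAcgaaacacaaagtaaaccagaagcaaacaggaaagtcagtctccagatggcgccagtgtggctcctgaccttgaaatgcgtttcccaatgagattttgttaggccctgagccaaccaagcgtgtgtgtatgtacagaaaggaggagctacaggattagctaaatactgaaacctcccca
A match is a description of the letters and not of binding.

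Of 24 astrocyte reactivity genes, 1 was called higher (Fbln5, an elastic fibre protein, 3.02 ± 0.637 to 6.88 ± 2.03 CPM, 1.20 ± 0.19, adjusted p = 0.0227), and 18 lay above 0 with a median of 0.20. Gfap, named after its values were seen, had 408 ± 63.1 and 586 ± 117 CPM and adjusted p = 0.125. The astrocyte identity markers had a median of -0.04 with 0 called. The 12 neuron identity markers tested had a median of -0.09, with 9 below 0 and 0 called. Of these, 4 were lower with an unadjusted p under 0.05, against 5.00% of all genes in that direction. Etnppl, an astrocyte enzyme that breaks down phosphoethanolamine, stood at 22, 27.2, 29.9, 29.2 and 32.3 CPM in 5mEE and at 70.4, 39.6, 91.3, 41.7 and 73.3 CPM in 24mEE, 1.17 ± 0.20 higher with adjusted p = 0.0277.

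**Figure D2:**
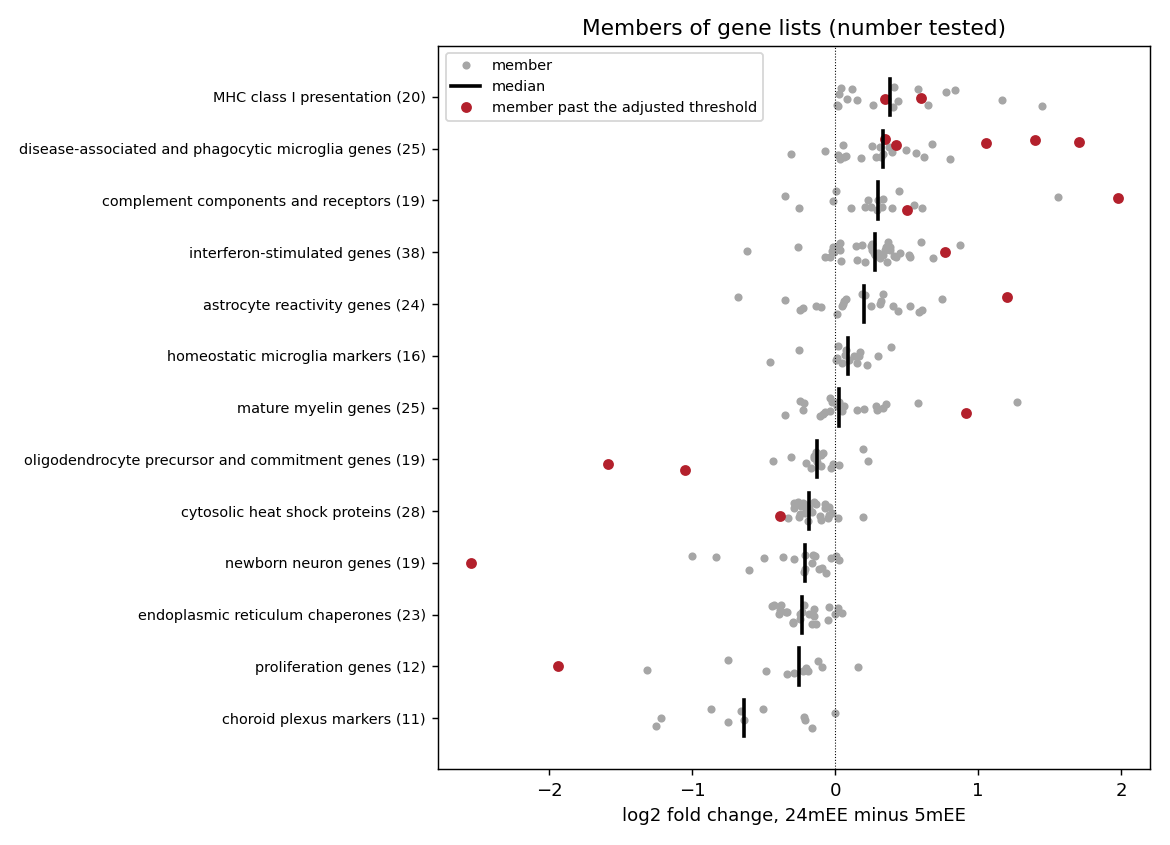
Log2 fold change (24mEE minus 5mEE) of each tested member of 13 gene lists, with list medians as black bars and members past the adjusted threshold in red. MHC class I members lie from the centre to the right (median 0.39), and proliferation genes mostly to the left (median -0.26).

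The genes that fell included members of the oligodendrocyte lineage and of dividing cells. Gpr17, a receptor of committed oligodendrocyte precursors, stood at 53.1, 62.5, 61.2, 61.6 and 65.0 CPM in 5mEE and at 24.5, 25.4, 30.7, 36.5 and 29.4 CPM in 24mEE. It fell by 1.05 ± 0.10 on the log2 scale (adjusted p = 0.000377). Bmp4, a secreted factor made in this stage, fell by 1.59 ± 0.24 (1.34 ± 0.335 to 0.444 ± 0.126 CPM, adjusted p = 0.0183). Of 19 genes of precursors and commitment, these 2 were called, 16 lay below 0 and the median was -0.13. Pdgfra, which marks the precursors themselves and was named after its values were seen, had 65.8 ± 6.67 and 59.4 ± 4.40 CPM (-0.15, adjusted p = 0.473). Mature myelin genes had a median of 0.03 over 25 tested, with Apod, a lipid carrier, called higher (93.1 ± 23.1 to 176 ± 42.1 CPM, 0.92 ± 0.17, adjusted p = 0.042).

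Top2a, a topoisomerase of dividing cells, stood at 1.68, 1.66, 1.19, 1.49 and 1.74 CPM in 5mEE and at 0.333, 0.559, 0.683, 0.312 and 0.138 CPM in 24mEE, and fell by 1.94 ± 0.28 (adjusted p = 0.0115). Of 12 proliferation genes it was the only one called, 11 lay below 0, and the median was -0.26. Cenpf, a kinetochore protein, had 1.62 ± 0.332 and 0.641 ± 0.276 CPM with adjusted p = 0.0604. Among 19 newborn neuron genes, 17 lay below 0 (median -0.21) and 1 was called, Igfbpl1, at 2.33, 1.08, 0.593, 0.854 and 1.62 CPM in 5mEE and 0.074, 0.129, 0.501, 0.312 and 0.138 CPM in 24mEE (-2.55 ± 0.47, adjusted p = 0.0388). Its lowest library held 2 counts, under the floor of 3. Dpysl3, a cytoskeletal protein of growing axons, had adjusted p = 0.0692. Dcx, a microtubule protein of migrating neurons named after its values were seen, had 22 ± 3.69 and 18.9 ± 5.38 CPM and adjusted p = 0.679.

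Most chaperone genes lay below 0, and 1 cytosolic member passed the test. Hsph1, a cytosolic chaperone of the Hsp110 family, stood at 476, 512, 432, 463 and 469 CPM in 5mEE and at 350, 342, 412, 380 and 314 CPM in 24mEE, and fell by 0.39 ± 0.07 (adjusted p = 0.0375). Of 28 cytosolic heat shock genes it was the only one called, 26 lay below 0, and the median was -0.19. Of 23 endoplasmic reticulum chaperones 0 were called, 21 lay below 0 and 17 had an unadjusted p under 0.05 (median -0.23), where 5.00% of all genes had one in that direction; Hspa5, the main chaperone of that compartment, had 371 ± 51.6 and 276 ± 21 CPM with adjusted p = 0.0604. Serpinh1, a collagen chaperone, fell by 0.52 ± 0.08 (15.6 ± 1.68 to 10.9 ± 0.506 CPM, adjusted p = 0.0186). Ncan, a chondroitin sulphate proteoglycan of the perineuronal matrix, fell by 0.35 ± 0.06 (214 ± 18.4 to 168 ± 6.97 CPM, adjusted p = 0.0265). Tnc, a matrix glycoprotein, had adjusted p = 0.0509.

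Clustered protocadherins, cell surface proteins that distinguish neurons, gave 4 genes called higher of 47 tested (Pcdhb9, Pcdhb6, Pcdhb2 and Pcdhb3) and none lower. Of the 47, 32 lay above 0 and 15 below, with a median of 0.14. An unadjusted p under 0.05 was found in 16 that were higher and 4 that were lower, against 6.30% and 5.00% of all genes tested. Pcdhb9 stood at 16.5, 12, 12.8, 14.6 and 15 CPM in 5mEE and at 23.7, 23, 22.9, 23.6 and 21.4 CPM in 24mEE (0.69 ± 0.08, adjusted p = 0.0029). Spag6, a protein of motile cilia, had the smallest p of all genes: 2.83, 2.60, 2.29, 2.56 and 2.69 CPM against 6.73, 5.50, 6.92, 5.75 and 6.48 CPM (1.27 ± 0.10, adjusted p = 0.000209). The 11 ependymal and cilia markers tested, Spag6 not among them, all went the other way (median -0.24). Neat1, a nuclear long noncoding RNA, rose by 0.89 ± 0.15 (141 ± 34.8 to 261 ± 41.2 CPM, adjusted p = 0.0263), and Nr1d1, a repressor of the circadian clock, by 0.38 ± 0.07 (adjusted p = 0.0401). Exons of Spag6 and Nr1d1 overlap a gene on the other strand over 8.34% and 8.55% of their length, and 8.75% of Pcdhb9 words are shared. Immediate early transcription factors, which neurons induce on activity, had 0 calls among 24 (median 0.15), and Egr3, named after its values were seen, had 44.2 ± 1.73 and 45.5 ± 2.83 CPM. Nuclear oxidative phosphorylation genes had 0 calls among 75 (median 0.01), and glutamate receptors 0 among 32 (median -0.05).

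Of the other genes that rose, several are known from immune cells. Lsp1, an actin-binding protein of leukocytes, stood at 3.36, 3.01, 2.67, 2.35 and 2.82 CPM in 5mEE and at 5.33, 5.24, 4.37, 5.75 and 5.65 CPM in 24mEE (0.88 ± 0.12, adjusted p = 0.00878). Ly9 and Slamf9, receptors of the SLAM family, went from 0.286 ± 0.19 to 1.17 ± 0.339 CPM and from 0.596 ± 0.178 to 1.39 ± 0.166 CPM. Cybb, the catalytic subunit of the phagocyte oxidase, went from 0.473 ± 0.105 to 1.27 ± 0.432 CPM, and Clec2d, a C-type lectin, from 0.891 ± 0.0745 to 1.6 ± 0.123 CPM.

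Among the 52 called genes, the largest log2 fold change was that of A530053G22Rik, a processed transcript on chromosome 6, at 0.0884, 0.359, 0.0424, 0.128 and 0.0951 CPM in 5mEE and at 0.962, 1.29, 0.820, 1.25 and 1.38 CPM in 24mEE (3.03 ± 0.36, adjusted p = 0.0029). Its lowest library held 1 count, under the floor of 3 counts, so the size of this fold is imprecise. Lin28b, an RNA-binding protein that blocks let-7 maturation, rose by 1.05 ± 0.17, Frem3, an extracellular matrix protein, by 1.54 ± 0.28, Upk1b, a tetraspanin, by 1.11 ± 0.17, and Wnt9a, a secreted Wnt ligand, by 0.83 ± 0.13. AC149090.1, on an unplaced scaffold, rose by 1.16 ± 0.16, and A830036E02Rik, an antisense transcript whose exons overlap Krt12 by 16.7%, by 0.77 ± 0.10. Slc2a4, the insulin-regulated glucose transporter, Exoc3l4 and Krt20 rose by 1.20, 1.23 and 0.89 from levels near 1 CPM or below, (Exoc3l4 overlaps a gene on the other strand by 15.7% and Aldh6a1 by 18.6%), and Ctso, Aldh6a1, Cbx7 and Evc by 0.28, 0.25, 0.20 and 0.32. Of the other genes that fell, Angptl4, a secreted inhibitor of lipoprotein lipase, fell by 1.01 ± 0.17 and Slc5a3, a myo-inositol transporter, by 0.58 ± 0.11. Mme, the peptidase neprilysin, stood at 8.84, 11, 9.54, 9.99 and 8.78 CPM in 5mEE and at 7.17, 7.44, 6.69, 7.27 and 6.62 CPM in 24mEE, and fell by 0.45 ± 0.08 (adjusted p = 0.0375). Gpr165 fell by 0.85, Peg10 by 0.61 and the processed pseudogene Gm6290 by 0.38.

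Choroid plexus and ependymal markers, which come from tissue beside the hippocampus, lay below 0 with none past the threshold. All 11 choroid plexus markers tested were below 0 (0 called, median -0.64), 4 of them with an unadjusted p under 0.05, against 5.00% of all genes in that direction, and their mean log2 CPM was 1.72 to 2.69 in 5mEE and 1.13 to 2.09 in 24mEE, so the ranges overlapped. Ttr, the most abundant specific marker, stood at 17.3, 57.2, 32.6, 58.8 and 91.0 CPM in 5mEE and at 9.80, 7.09, 25.7, 23.9 and 42.1 CPM in 24mEE (adjusted p = 0.313). All 11 ependymal and cilia markers tested were below 0 as well (median -0.24), at 0.45 to 1.37 and 0.11 to 1.28 mean log2 CPM. In standard cages the choroid plexus median was -0.13 over all 10 libraries and 0.35 without 5mSC replicates 1 and 3. With the choroid plexus level as a covariate, an alternative, 25 genes were called, 16 of the 52 among them. C4b, Lyz2, Spag6 and Gpr17 stayed past the threshold, whereas B2m, H2-D1, Ctss, Top2a, Bmp4, Hsph1 and Serpinh1 kept their direction and did not. Their log2 fold changes with the covariate were 0.31 for B2m, 0.66 for H2-D1, 0.40 for Ctss, -1.86 for Top2a, -1.57 for Bmp4, -0.37 for Hsph1 and -0.51 for Serpinh1, against 0.35, 0.60, 0.43, -1.94, -1.59, -0.39 and -0.52 without it. The SE were larger with it (0.06 against 0.05 for B2m), and the adjusted p of these 7 were 0.0678 to 0.14. The part of this tissue in the results was otherwise not tested.

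**Figure D3:**
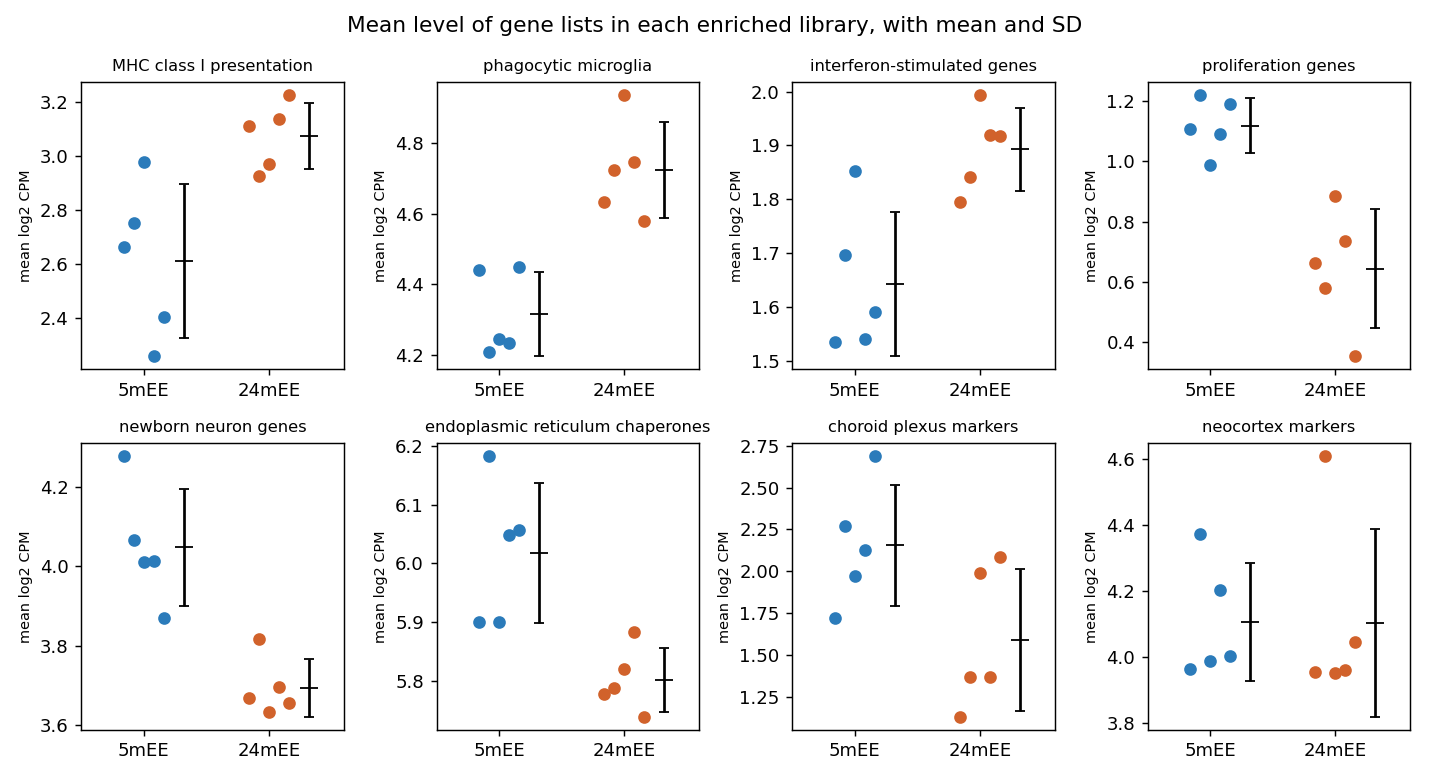
Mean log2 CPM (y axis) of 8 gene lists in each enriched library, with group mean and SD as black bars. Phagocytic microglia, proliferation, newborn neuron and endoplasmic reticulum chaperone genes are separated by age. MHC class I, interferon-stimulated, choroid plexus and neocortex lists overlap.

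The same ages in standard cages were read in libraries that this comparison did not use. Of the 38 genes that rose, 35 had the same sign there and 24 also an unadjusted p under 0.05, where 46.0% of genes lay above 0 and 4.91% passed in that direction. Of the 14 that fell, 9 had the same sign and 5 an unadjusted p under 0.05, against 54.0% and 7.04%. Without 5mSC replicates 1 and 3 the counts were 35 and 29 of the 38 (49.2% and 9.66% of all genes), and 11 and 6 of the 14 (50.8% and 8.95%). Of the genes that rose, Etnppl, Ctso and Aldh6a1 were then at -0.36 ± 0.35, -0.09 ± 0.14 and -0.15 ± 0.15. Of those that fell, Adgra3, Mme and Gpr165 were above 0, Mme at 0.01 ± 0.11 and Gpr165 at 0.06 ± 0.15. With all 10 libraries, Etnppl, Aldh6a1 and Clec2d were below 0, and Adgra3, Mme, Gpr165, Ncan and Gm6290 above. At an adjusted p under 0.05 the standard cage fit called 1 gene higher and 2 lower (0.00632% and 0.0126% of all genes tested), of which 1 of the 38 and 0 of the 14, and without those 2 libraries it called 71 (0.441%), of which 11 and 2. In that fit Gpr17 had a log2 fold change of -1.06 ± 0.08 and C4b of 1.73 ± 0.19, close to the values under enrichment. Adgra3, an adhesion receptor, fell by 0.60 ± 0.10 under enrichment (adjusted p = 0.0227). Over all 10 standard cage libraries it had a log2 fold change of 0.28 ± 0.11, and 0.25 ± 0.11 without 5mSC replicates 1 and 3, both short of the adjusted threshold. The age differences themselves differed by -0.90 ± 0.15 between cages (adjusted p = 0.0578), and by -0.86 ± 0.15 without those 2 libraries (adjusted p = 0.105).

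**Figure D4:**
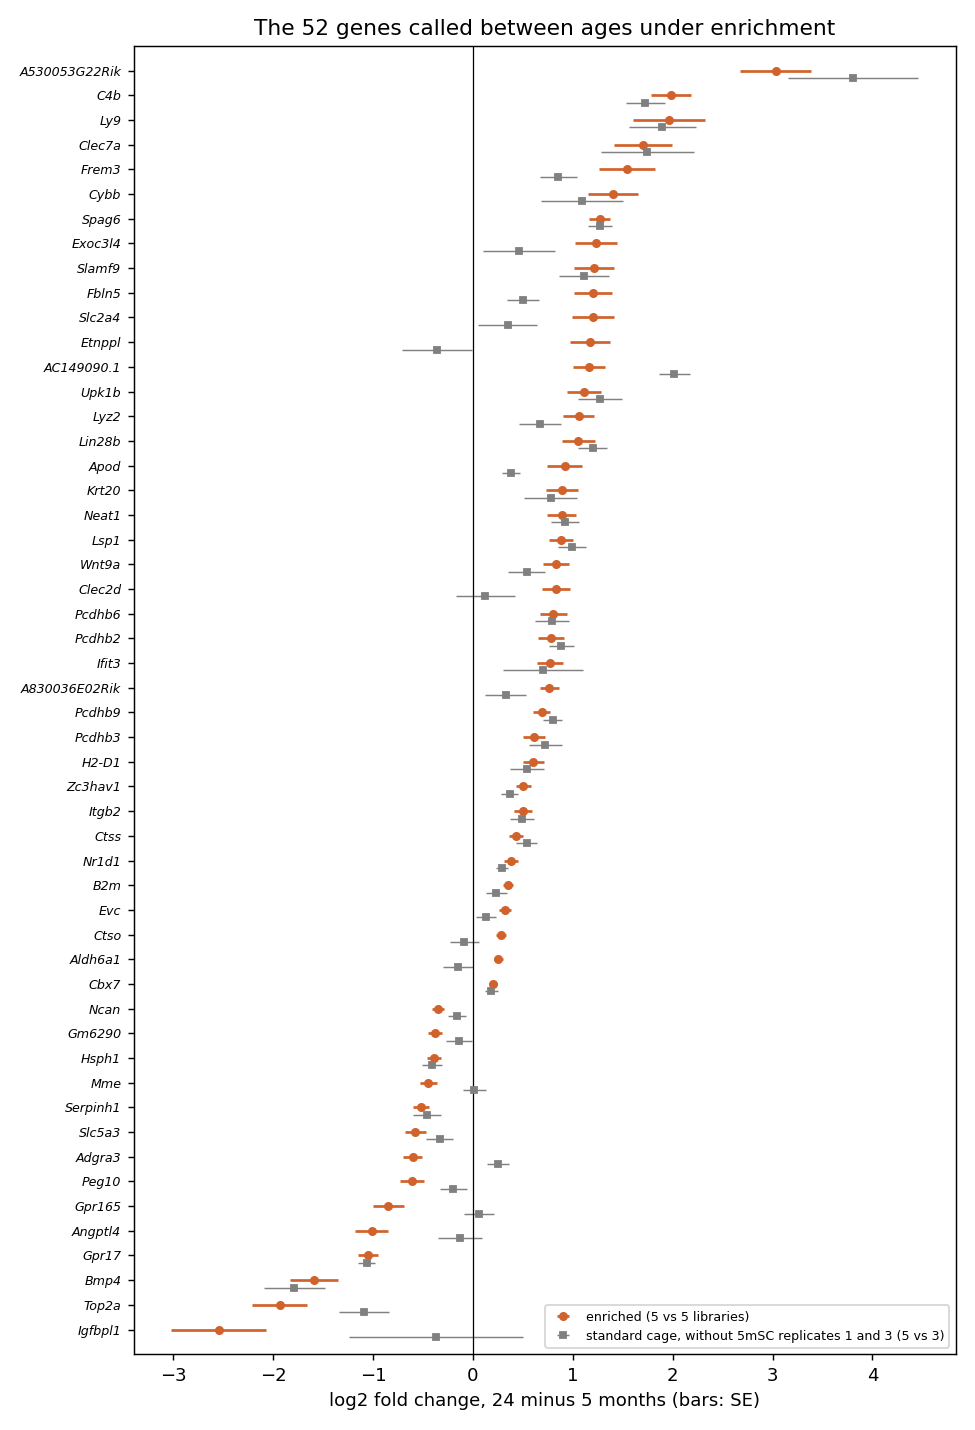
Log2 fold change of the 52 called genes between 24 and 5 months (x axis, bars are SE) under enrichment (orange) and in standard cages without 5mSC replicates 1 and 3 (grey). The 2 values lie near each other for Gpr17, and to opposite sides of 0 for Adgra3, Etnppl, Ctso, Aldh6a1, Mme and Gpr165.

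The test of whether the age difference depended on the cage called 0 of 16692 genes (edgeR's quasi-likelihood test), with 1336 at an unadjusted p under 0.05, and DESeq2 called 6. Among the 52 genes, 5 of the 38 higher and 6 of the 14 lower had an unadjusted p under 0.05, against 8% of all genes. The 52 were picked by the enriched difference, which is part of this test. Their shares, here and in the next sentence, therefore cannot be read against those of all genes. Without 5mSC replicates 1 and 3 the test called 1 gene, Egr3 (0.00590% of all genes), and 8 of the 38 and 6 of the 14 had an unadjusted p under 0.05, against 9.26%. The main test includes 5mSC replicates 1 and 3 and the wider spread of the standard cage libraries. Its 0 calls do not show that the age differences were the same in both cages. By that main test, no gene is called particular to enrichment.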

How the data were processed

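Counts per gene were deposited by the authors as raw whole numbers, 1 column a library, and a file of RPKM values was not used. The submitters' processing notes name bcl2fastq 1.8.2, STAR 2.4.1d, featureCounts 1.4.6-p4 and the build GRCm38, whereas the methods of the study describe another aligner and counter, and the annotation release behind the counts is not given in the sources used here. RNA came from a kit that does not mark strand, so overlapping genes cannot be told apart. Of 47729 identifiers, 47310 (99.1%) were matched to a symbol in GENCODE M21.

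Groups were taken from the labels. The 10 enriched libraries were fitted alone with edgeR 4.0.16 in R 4.3.3 (filterByExpr at its defaults of 10 counts and, summed over libraries, 15, TMM, quasi-likelihood F test, Benjamini-Hochberg adjustment, threshold 0.05), and SE was taken from the log2 fold change and F. CPM are scaled by TMM. The standard cage fit and the interaction of age and cage, over 20 libraries, used the same settings. The labels give no sequencing run, so it could not be entered. Replicates were numbered in order of deposition and pair no samples, and p-values measure the spread between these mice. The methods of the study describe group housing and separate runs of animals, and the labels give neither home cage nor run. Differences between home cages or runs are not covered by that spread and could not be told apart from age. Libraries of a group differed by more than sampling noise (chi-square per degree of freedom 7.19 to 21.7), so none was counted as a copy. A count floor of 3 is 0.088 to 0.138 CPM in the enriched libraries and covers counting error only.

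The test was run on simulated data for 24mEE with 5mEE over 15923 genes, where it recovered 98% of genes changed 0.5-fold, 94% at 1.5-fold and 100% at 2-fold and at 3-fold (50 genes each), with 10 false calls. The changed genes were drawn from those with a mean of at least 2 CPM, and counts were drawn at the spread fitted to each gene. Recovery at lower levels, such as those of Top2a and Bmp4, was not simulated. Nor was a library that departs from the others of its group. The genes named were up to 12 a direction by p and 6 more by fold among called genes with a mean log2 CPM of 1 or more, and up to 4 called members of a list, or the 2 with the smallest p. A530053G22Rik, Slamf9, Clec2d, Exoc3l4, Slc2a4, Krt20, Cybb, Ctso, Ly9, Aldh6a1, Cbx7 and Evc were called but lie outside this rule, and they, C3, Gfap, Pdgfra, Dcx, Egr3, Ttr and H2-K1 were chosen after their values were seen. The comparison and the 50 gene lists were chosen with earlier results of these data known. Alternatives included DESeq2 1.42.0 and limma 3.58.1, other filters, marker covariates and leaving out each library; limma-voom without weights, and the 18-library model of the enriched contrast, were chosen after seeing the data.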

Additional observations from a re-analysis of the deposited data

Results flagged for a closer look

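Of 284 groups of 5 values examined for 1 library far from the other 4, 17 were flagged (5.99%), and chance flags about 1 in 20. C4b stood at 39.8 CPM in 5mEE replicate 1 (the others at 23.1 to 26.9) and at 176 CPM in 24mEE replicate 3 (87.3 to 112). Itgb2 stood apart in the same libraries, at 7.75 CPM (7.05 to 7.25) and 12.6 CPM (9.10 to 10.1). In 24mEE replicate 3, Fbln5 was also high at 10.4 CPM (5.59 to 6.71), Gstm1 at 203 CPM (161 to 169), and Serpinh1 was low at 9.97 CPM (10.9 to 11.2). In 5mEE replicate 1, Sox11 was high at 28.3 CPM (15.9 to 18.4). In 5mEE replicate 2, A530053G22Rik was high at 0.359 CPM (0.0424 to 0.128) and Clec2d low at 0.763 CPM (0.896 to 0.951). In 5mEE replicate 5, Angptl4 was low at 1.77 CPM (2.24 to 2.39) and Grm7 at 63.6 CPM (67.8 to 69.5). The complement list was low in 5mEE replicate 4, at a mean log2 CPM of 1.87 (2.02 to 2.07). In 24mEE replicate 2, neocortex markers were high at a mean log2 CPM of 4.61 (3.95 to 4.05) and Rgs4 at 215 CPM (160 to 174). Cdkn1a was low in 24mEE replicate 4 at 4.37 CPM (6.30 to 6.92), and 24mEE replicate 1 had the most counts of its group, 27.2 M (21.7 to 22.6 M).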

How the results depend on the processing

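The 52 genes called between ages under enrichment (38 higher, 14 lower) became 18 (14 and 4) with all 20 libraries in the model, 219 (142 and 77) with DESeq2's Wald test, 129 (84 and 45) without a filter, 25 (17 and 8) with the choroid plexus covariate, and 97 (70 and 27) with 18 libraries, an alternative chosen after seeing the data. Leaving out 1 library gave 14 to 48 (11 to 36 higher, 3 to 14 lower). The other settings stayed within 1.5 times the count. Of the 52, 4 passed in each setting (Lyz2, C4b, Gpr17 and Pcdhb9). The test of age by cage gave 0 genes, 1 without 5mSC replicates 1 and 3 (Egr3), 6 with DESeq2, and 0 to 1 without 1 library. In standard cages 3 genes were called (1 higher, 2 lower), 71 (29 and 42) without 5mSC replicates 1 and 3, 205 (115 and 90) with DESeq2, and 1 to 109 (1 to 83 higher, 0 to 50 lower) without 1 library. Beyond fewer samples or genes in a fit, the cause was not tested. No paired analysis was possible because replicate numbers only follow the order of deposition. Folds of A530053G22Rik, Igfbpl1 and Ly9 rest partly on libraries with fewer than 3 counts.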
